A study of Mus musculus with 3 samples.

Results

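The genes described here build the core of the cilium, the axoneme, and the transport trains that carry its parts. They are the 76 symbols, of 31053 in the count tables, that begin with Dnah, Dnaic, Dnali, Cfap, Rsph, Tekt, Drc or Ift followed by a digit. Of these, 60 are axonemal genes (26 Cfap, 18 dynein chains, 8 Rsph, 5 Tekt and 3 Drc) and 14 are Ift genes of intraflagellar transport. The other two, Dnah2os and Ift88os, are RNAs annotated on the strand opposite to a named gene, and they were kept apart. A filter on low counts was passed by 55 axonemal genes, by all 14 transport genes and by Dnah2os. Cfap73, Dnah17, Dnah8, Rsph6a, Tekt5 and Ift88os did not pass it, and neither Rsph6a nor Ift88os had a UMI in any class.

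An axoneme is a ring of microtubule doublets. Outer and inner dynein arms, motors made of Dnah heavy chains with lighter chains, slide the doublets past each other, while radial spokes (Rsph) and the nexin-dynein regulatory complex (Drc) control that sliding and tektins (Tekt) lie along the doublets. Transport trains built of Ift proteins move cargo along the same doublets: complex B, with kinesin, towards the tip and complex A, with dynein, back to the base. Ependymal cells, which line the brain ventricles, bear tufts of beating cilia, whereas most other cells have at most a single immotile cilium that is built with the same trains but lacks dynein arms and spokes.

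All samples were hippocampi of 2-year-old wild-type C57BL/6 mice, dissociated with papain, freed of myelin with beads and profiled in 3 libraries of 10x 3′ single-cell RNA-seq. There was no treatment or genotype group, so comparisons were made between cell classes within the libraries. The title of library 3 carries another age than its age label. The labels do not tie a library to an animal, so no p-value measures a spread known to be between animals. Differences between libraries were removed in the fit, so p-values measure how much class differences vary from library to library. All classes shared 1 fit, and in the main set the ependymal ones came from libraries 1 and 3 only. Libraries 1, 2 and 3 held 45716237, 7185668 and 40377042 UMIs (unique molecular identifiers, 1 per captured transcript) in 7241, 1062 and 6456 barcodes. Between 2 and 12 barcodes were shared by each pair of libraries.

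Barcodes were classed by detection of 3 markers each, none of them among the 76 genes. These were Tmem212, Foxj1 and Ccdc153 for ependymal cells, Slc1a2, Aqp4 and Gja1 for astrocytes, Cldn5, Flt1 and Pecam1 for endothelial cells, and Cx3cr1, P2ry12 and C1qa for microglia. The ependymal markers were chosen for a ciliated cell type, so that class is not independent of ciliary genes. A barcode that met more than 1 rule was left out, and a class needed 10 barcodes in a library. This left 122 ependymal barcodes of at least 3000 UMIs (41 in library 1 and 81 in library 3) and 89 of under 2000 UMIs (27 and 62), with none used from library 2. Astrocytes numbered 1076, 70 and 639, endothelial cells 2238, 400 and 1607, and microglia 800, 92 and 753 in libraries 1, 2 and 3. The rule was costly for the ependyma, since 434 of its 564 barcodes of at least 3000 UMIs also held all 3 astrocyte markers. A second set, chosen after the data were seen, therefore kept every barcode with all 3 ependymal markers (190, 20 and 354 of at least 3000 UMIs), and its values are given where they differ. Ttr, the main transcript of the choroid plexus, was at 0 in the ependymal barcodes of both depths, and 7 choroid plexus markers together gave 2.17 to 3.14 UMIs per 10000 there. Of these 7 markers 2 passed the filter on low counts. Of those, Folr1 was higher in ependymal barcodes of at least 3000 UMIs than in the other 3 classes (log2 change 7.42, standard error 0.25). The other was not called in either direction, and the median log2 change of the 2 was 0.67, far below that of Folr1.

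Summed over genes, the 60 axonemal genes stood far above the transport genes in ependymal cells and close to or below them in the other classes. The axonemal group holds more genes than the transport group, so a sum or ratio within a class does not compare the levels of single genes. Only differences between classes are read from these sums and from the ratio below. In ependymal barcodes of at least 3000 UMIs the axonemal genes gave 70.3 and 72.3 UMIs per 10000 in libraries 1 and 3, and the transport genes 19.9 and 18.01. In astrocytes the axonemal genes gave 3.57, 4.94 and 4.15 per 10000 in libraries 1, 2 and 3, and the transport genes 4.43, 4.92 and 4.94. Both groups were lower in each library of endothelial cells and microglia than in any library of astrocytes. Endothelial cells held 1.38, 1.83 and 1.60 axonemal and 2.41, 2.21 and 2.998 transport UMIs per 10000, and microglia 1.04, 0.996 and 1.18 axonemal and 1.29, 1.30 and 1.67 transport UMIs. The second ependymal set gave 72.0, 81.1 and 71.5 axonemal and 17.9, 16.8 and 17.3 transport UMIs per 10000, so that library 2 fell above the other two for the first group and just below them for the second.

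**Figure D1:**
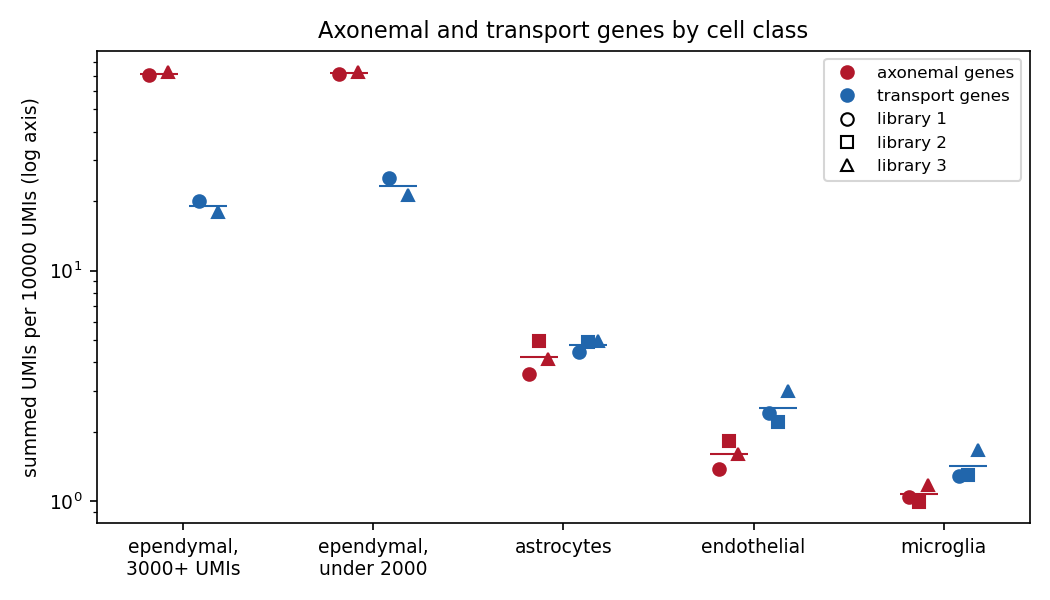
Summed UMIs of the 60 axonemal genes (red) and the 14 transport genes (blue) per 10000 UMIs, on a log axis, in 5 cell classes; each point is 1 library and each line the mean. The axonemal genes sit near 71 per 10000 in both ependymal classes and between 0.996 and 4.94 elsewhere, while the transport genes span a narrower range, from 1.29 to 25.2.

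The log2 ratio of axonemal to transport UMIs was 1.91 ± 0.13 (SD, n = 2) in ependymal barcodes of at least 3000 UMIs and 1.63 ± 0.19 (n = 2) in those of under 2000. It was -0.19 ± 0.17 in astrocytes, -0.66 ± 0.34 in endothelial cells and -0.40 ± 0.10 in microglia (each n = 3). Every ependymal library, at either depth, lay above every library of the other 3 classes, whose ranges overlapped each other. Without the Cfap genes the ratio was 1.01 in ependymal cells, -1.52 in astrocytes, -3.27 in endothelial cells and -3.24 in microglia. The Cfap family therefore made up most axonemal UMIs outside the ependyma: 1.31 of 1.60 per 10000 in endothelial cells and 0.922 of 1.07 in microglia, against 33.2 of 71.3 in ependymal cells. Within the family Cfap20, Cfap36 and Cfap97 led, with 1331, 1770 and 768 UMIs in endothelial cells and 419, 246 and 169 in microglia.

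Single barcodes showed the same order at equal depth. When each barcode was thinned to 500 UMIs, an axonemal UMI was found in 96.9% ± 2.6 (SD, n = 2) of ependymal barcodes of at least 3000 UMIs, 15.4% ± 2.0 (n = 3) of astrocytes, 8.27% ± 1.1 of endothelial cells and 6.97% ± 1.5 of microglia. A transport UMI was found in 57.1% ± 15.2, 20.7% ± 1.6, 13.1% ± 2.5 and 7.27% ± 2.1. Without thinning, all 122 ependymal barcodes held both, and axonemal shares rose to 75.5% in astrocytes, 65.5% in endothelial cells and 52.4% in microglia. The ependymal marker Tmem212, which those 3 classes should lack, was seen at 500 UMIs in 1.22%, 0.231% and 0.219% of them.

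Of the 60 axonemal genes 53 rose, 2 did not pass the test and 5 were not tested in ependymal barcodes of at least 3000 UMIs against the mean of the other 3 classes, and none fell (edgeR's quasi-likelihood test, Benjamini-Hochberg adjusted p below 0.05 over all genes). All 14 transport genes rose. A gene could pass the filter on low counts through its ependymal sums, as with Tekt3, which had 10 UMIs there and 1 in each of the other 3 classes, so the axonemal count and median are descriptions. With the deep barcodes thinned to 1000 UMIs, of which 10 and 26 remained, 28 axonemal and 3 transport genes were called, and 6 transport genes changed sign on the log2 scale without passing, among them Ift20 (from 1.45 to -0.12) and Ift172 (from 1.41 to -0.70). Over all 14159 genes tested, 21.6% rose and 20.0% fell, or 41.6% in all. The median log2 change was 6.72 for the axonemal genes, 2.38 for the transport genes and -0.24 for all genes. In 7 axonemal genes microglia had no UMI, and with these set at the bound that 3 counts allow the axonemal median remained 6.72. In the second ependymal set, 55 of 56 axonemal and 14 of 14 transport genes rose, with medians of 6.94 and 2.70. The second set had 32.3% of all 14451 genes higher.

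**Figure D2:**
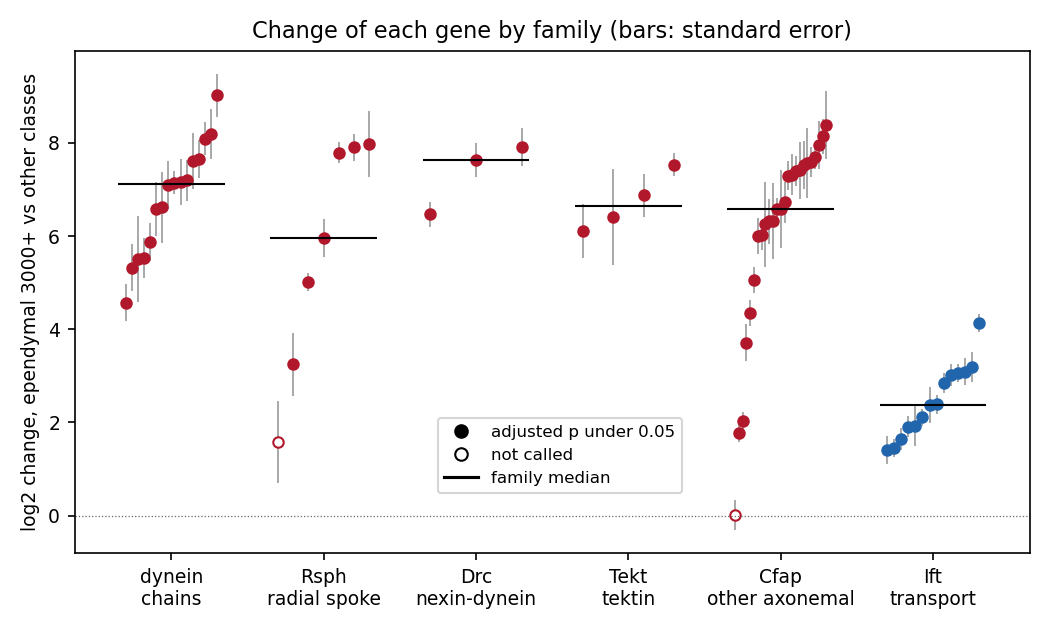
Log2 change (edgeR, bars are standard errors) of each tested gene between ependymal barcodes of at least 3000 UMIs and the mean of astrocytes, endothelial cells and microglia, by family, with family medians as lines. Dynein chains have a median of 7.12 and transport genes of 2.38, and the open points are Rsph3b and Cfap97.

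Dynein chains were called in 16 of 16 tested, with a median log2 change of 7.12. Dnah5, an outer arm heavy chain (ENSMUSG00000022262.8, chromosome 15, 28203752 to 28472052 on mm10), stood at 143 and 113 UMIs per 1000000 (CPM) in ependymal libraries 1 and 3. Its levels were 2.80, 2.08 and 1.38 CPM in astrocytes, 0.0475, 0.714 and 0.160 in endothelial cells, and 0 in all 3 microglia libraries. The groups did not overlap. With microglia set at the floor of 3 counts, Dnah5 was at least 293-fold higher in the ependyma than the geometric mean of the other 3 classes, of which astrocytes were the highest at 2.10 CPM over all libraries against 122.4 in the ependyma. Dnah9, another outer arm heavy chain, was at least 203-fold higher than the same mean of 3 classes, with 103.1 CPM in the ependyma and 2.51 in astrocytes over all libraries. Dnah12, a heavy chain, changed by 8.09 ± 0.36 (log2 ± SE, adjusted p = 3.55e-16), and Dnali1, a light intermediate chain of inner arms, by 7.14 ± 0.25 (2.62e-18). The smallest change of the family was that of Dnaic1, an outer arm intermediate chain (4.57 ± 0.39, adjusted p = 2.59e-10).

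Radial spoke genes held the most abundant transcript of the whole set. Rsph1, a spoke head protein (ENSMUSG00000024033.10, chromosome 17, 31255019 to 31277383), reached 794 and 768 CPM in ependymal cells. It stood at 5.77, 18.7 and 11.5 CPM in astrocytes and at no more than 2.25 CPM in any library of endothelial cells or microglia. Both ependymal libraries were thus far above every other library, with a log2 change of 7.79 ± 0.22 (edgeR adjusted p = 1.15e-19). Rsph4a, also of the spoke head, changed by 7.91 ± 0.29 and Rsph14 by 7.97 ± 0.71. Rsph3b did not pass (1.58 ± 0.88, adjusted p = 0.154) and had 6.82 and 6.27 CPM in ependymal cells. Its near-identical copy Rsph3a was called (3.25 ± 0.68), and reads can be split between the pair, so both are uncertain.

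All 3 genes of the nexin-dynein complex and all 4 tektins tested rose. Drc3 gave 273 and 240 CPM in the ependyma, Drc7 150 and 108, and Drc1 123 and 157. Tekt1 led its family with 303 and 284 CPM, followed by Tekt4 with 75.0 and 78.4, and Tekt1 changed by 7.53 ± 0.25 (edgeR adjusted p = 9.89e-19). Tekt5 alone of the tektins had no ependymal UMI, of 931504 in this set. Astrocytes held 11 Tekt5 UMIs of 12358608, or 0.989, 2.08 and 0.689 CPM. A floor of 3 counts in the ependyma is 3.22 CPM, so these values cannot rank the 2 classes.

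Cfap is a name for proteins found in cilia and flagella, and 24 of 25 tested rose. Cfap126, which places basal bodies in multiciliated cells, was the second most abundant gene of the set at 566 and 602 CPM in the ependyma. Cfap44 (8.14 ± 0.37, edgeR adjusted p = 7.84e-16) and Cfap65 (7.96 ± 0.52, 1.2e-12) had the largest changes among Cfap genes without a class at 0. Cfap61, at 0 in microglia, was at least 190-fold higher than the geometric mean of the 3 classes, with 40.8 CPM in the ependyma and 0.566 in astrocytes over all libraries. Cfap97 was the exception: it stood at 27.3 and 23.5 CPM in ependymal cells, 21.4, 24.9 and 21.7 in astrocytes, 17.3, 21.9 and 25.1 in endothelial cells, and 11.3, 10.1 and 13.6 in microglia. The ependymal range of Cfap97 overlapped those of astrocytes and endothelial cells, and its log2 change was 0.00 ± 0.32 (adjusted p = 1). Cfap36 and Cfap20 rose, by 1.77 ± 0.19 and 2.04 ± 0.19, but had 45.0% and 25.9% of their ependymal level in astrocytes.

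Among the transport genes the change ran from 4.13 in Ift43 to 1.41 in Ift172. Ift43, a subunit of complex A (ENSMUSG00000007867.9, chromosome 12, 86082541 to 86162459), stood at 320 and 346 CPM in the ependyma, at 28.5, 33.2 and 42.5 in astrocytes, at 14.5, 17.4 and 14.1 in endothelial cells and at 4.13, 3.36 and 6.03 in microglia. These 4 classes did not overlap. Ift172, a large subunit of complex B, stood at 47.7 and 64.3 CPM against 14.7, 24.9 and 16.4 in astrocytes and 22.1, 18.6 and 34.3 in endothelial cells, and the astrocyte and endothelial ranges overlapped. Complex A was not set apart from complex B, since its Ift140 and Ift122 changed by 1.93 ± 0.43 and 2.38 ± 0.39 while Ift80, Ift88, Ift22 and Ift81 of complex B changed by 3.19, 3.09, 3.07 and 3.02. The smallest changes after Ift172 were those of Ift20 (1.45) and Ift52 (1.65), and those of Ift57, Ift74, Ift27 and Ift46 were 2.85, 2.39, 2.11 and 1.91. Without library 3, Ift140 no longer passed (1.74, adjusted p = 0.121).

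Other ciliary genes were counted against the same background, 21.6% of all genes higher and 20.0% lower. Of 36 other axonemal parts tested, all rose, with a median of 6.32; Spag17, of the central pair, changed by 8.90 ± 0.28 (edgeR adjusted p = 4.34e-19). Of 15 factors that assemble dynein arms in the cytoplasm 14 rose, with a median of 4.37. Transport subunits that do not carry an Ift symbol rose in 10 of 11, with a median of 2.67, and Wdr35, of complex A, changed by 4.40 ± 0.30. The transition zone at the base of the cilium rose in 15 of 17 (median 2.61) and the BBSome, a cargo adaptor, in 8 of 10 (median 1.91). Of 16 transport motors 11 rose and 1, Dynlt3, fell. The dynein light chain Dynlrb2, counted both here and among the other axonemal parts, rose by 7.67 ± 0.22. Of 15 signalling proteins of the primary cilium 3 were higher and 2, Sufu and Ptch1, lower, shares near or below that background.

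RFX transcription factors are known to bind X-box motifs in ciliary promoters. The motif was searched on both strands as GTNNCCNNGGNAAC in the 250 bases before each annotated gene start (RefSeq, GRCm38.p6), where 61 of the genes matched by symbol. It was found in 2 of 11 transport genes (18.2%), in 2 of 50 axonemal genes and in 1.24% of all 27025 genes. The 5 matches are shown because they are the members' only ones, with the match in capitals, read 5′ to 3′ on the gene's strand.
Cfap206 (chr4:34730207-34730259, minus strand, match 23 bases before the start): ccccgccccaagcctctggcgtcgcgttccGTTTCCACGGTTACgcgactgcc
Tekt4 (chr17:25471400-25471473, plus strand, 160 bases before): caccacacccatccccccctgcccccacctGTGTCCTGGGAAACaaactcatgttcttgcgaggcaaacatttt
Ift22 (chr5:136908057-136908130, plus strand, 63 bases before): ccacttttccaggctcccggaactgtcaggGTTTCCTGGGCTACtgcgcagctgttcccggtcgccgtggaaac
Ift22 (chr5:136908087-136908149, plus strand, 33 bases before): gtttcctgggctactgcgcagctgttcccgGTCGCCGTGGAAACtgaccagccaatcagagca
Ift57 (chr16:49699177-49699250, plus strand, 87 bases before): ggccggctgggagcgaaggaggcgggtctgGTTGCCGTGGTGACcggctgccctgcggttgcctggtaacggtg
Ift22 alone held 2 matches, and its second lies within the printed end of the first. The letters CCAAT were in 8 of 11 transport genes (72.7%), 19 of 50 axonemal genes and 37.5% of all genes. The forkhead letters GTAAACA were in 0 of 11, 4 of 50 and 3.54%, and the E-box letters CACGTG in 0 of 11, 4 of 50 and 6.86%. Matches of different motifs were counted separately, and they may share letters. The RefSeq start used for Tekt4 lies inside the gene as GENCODE places it (chromosome 17, 25454615 to 25476602), as does that of Ift57 (chromosome 16, from 49699233), while those of Cfap206 and Ift22 lie at the GENCODE start. These shares describe letters in a window and not bound sites.

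Ependymal barcodes of under 2000 UMIs had a summed level of axonemal genes like that of deeper ones, with another makeup. Their axonemal sum was 71.4 and 72.3 per 10000 UMIs in libraries 1 and 3, next to 70.3 and 72.3 at higher depth, and the transport sum was 25.2 and 21.3. The axonemal sum was not even within the class: it was 58.7 and 58.9 at 500 to 999 UMIs, 73.01 and 73.4 at 1000 to 1499, and 78.4 and 78.9 at 1500 to 1999. Dynein chains, however, gave 8.49 ± 1.8 per 10000 against 14.4 ± 0.13 at higher depth (SD, n = 2 each). Rsph genes gave 17.0 ± 0.38 against 14.3 ± 0.16 and Cfap genes 36.3 ± 0.93 against 33.2 ± 2.2.

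Few single genes passed at this depth. Against barcodes of at least 3000 UMIs 1 of 55 axonemal genes fell and none rose, and 0 of 14 transport genes were called in either direction, against 0.36% of all genes lower and 0.0141% higher. At an unadjusted p below 0.05 the edgeR test gave 13 axonemal genes lower and 1 higher, and no transport gene, and DESeq2 called no member. The gene called was Cfap54, a central pair protein, with 300 and 249 CPM at higher depth and 131 and 40.7 below 2000 UMIs, from 4 and 3 UMIs. It changed by -2.48 ± 0.52 (adjusted p = 0.022) where the median of all genes was -0.69, and without library 3 it did not pass (-1.97, 0.545). The median of all genes was -0.46 with RLE scaling and -0.13 with DESeq2, which called 7 genes higher and 18 lower against 2 and 51, and Cfap54 passed with neither (adjusted p = 0.0962 and 0.302). In the second ependymal set, where 1.81% of all genes fell and 0.0138% rose, 5 axonemal genes fell: Cfap54, Cfap46, Dnah11, Dnah12 and Dnah7b. Dnah7b had 0 UMIs of 104224 at low depth against 50 of 931504 in the main set, at least 1.86-fold lower by the floor of 3 counts.

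The sums by transcript length moved in opposite directions. Axonemal genes were split by their longest annotated transcript (GENCODE), in ranges chosen after the data were seen. The 21 genes of 5000 bases or more gave 18.3 and 18.6 UMIs per 10000 at higher depth and 8.19 and 6.79 at low depth, a ratio of 0.447 in library 1 and 0.366 in library 3. The 15 genes under 2000 bases gave 27.1 and 27.7 against 32.8 and 36.0, a ratio of 1.21 and 1.30. The direction was thus opposite in the sums of the long and the short axonemal genes of both libraries, while single genes varied: Rsph9, of 966 bases, went from 300 and 302 CPM to 262 and 258. For all other protein-coding genes the ratio was 0.716 and 0.654 at 5000 bases or more and 1.19 and 1.27 under 2000 bases, so the long axonemal genes fell below other long genes, a difference that was not tested. The sets were not matched for length, and most long axonemal genes were Dnah genes of 12009 to 16685 bases. The part of length itself in this difference, and in the rho values below, was not tested. Across the 46 axonemal genes with at least 30 UMIs Spearman's rho of length and ratio was -0.73, and across 4685 other genes -0.46; genes share their libraries and are not replicates.

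Several properties of the barcodes moved with depth. The median mitochondrial share was 0.378% and 0.794% below 2000 UMIs against 3.92% and 4.77% at 3000 or more. Malat1, a nuclear RNA, gave 45.5 and 41.3 UMIs per 10000 against 268 and 268, and ribosomal protein genes 870 and 855 against 755 and 619. Microglia markers gave 3.28 and 4.21 per 10000 against 0.954 and 1.05, and red cell genes 9.17 and 28.0 against 1.12 and 3.71. The low-depth rule itself asks for 3 detected markers in few UMIs, and those markers summed to 66.8 and 69.9 per 10000 against 44.6 and 43.2. When the deep barcodes were thinned to 1000 UMIs and the same markers asked of them, 10 and 26 barcodes remained in libraries 1 and 3. The ratio of long axonemal genes was then 0.546 and 0.630, from 15 and 28 UMIs in the thinned barcodes, against 0.826 and 0.823 in other long genes. The barcodes that remained had median mitochondrial shares of 2.08% and 0.61%, so they differed from the deep class in more than depth. The part of mitochondrial, nuclear, microglial and red cell RNA in the length pattern was not tested.

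**Figure D3:**
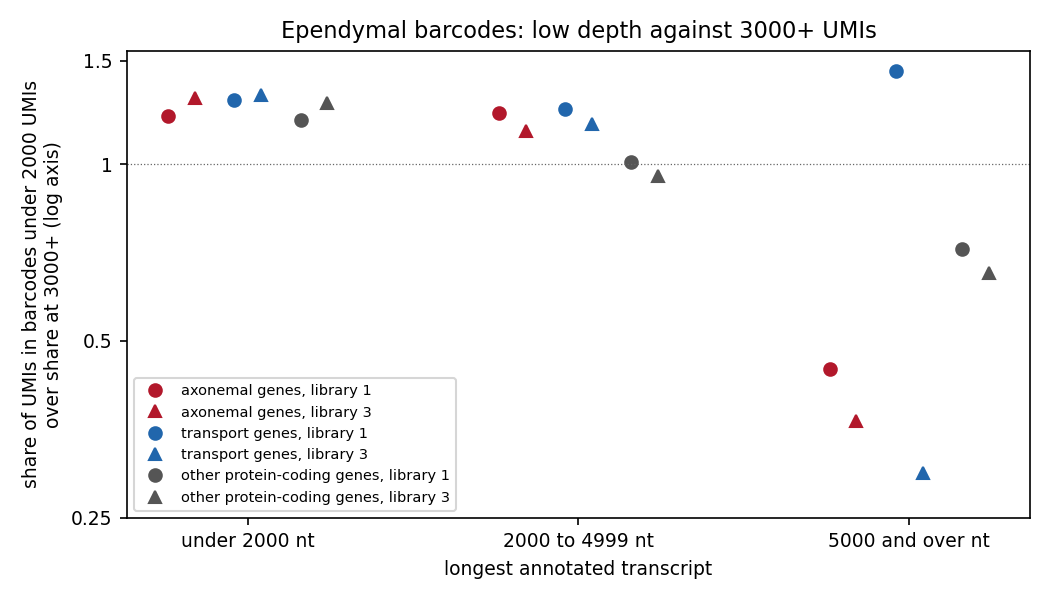
Share of UMIs in ependymal barcodes of under 2000 UMIs over that at 3000 or more, on a log axis, by the longest annotated transcript of the genes, for axonemal, transport and other protein-coding genes in libraries 1 and 3. Axonemal genes of 5000 bases or more lie at 0.447 and 0.366 and shorter ones above 1; the 2 transport genes of that length rest on 3 and 2 UMIs at low depth.

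In astrocytes, which carry a primary cilium, 39 of 55 axonemal genes were higher than in endothelial cells and microglia, 2 were lower, and 10 of 14 transport genes were higher. Of all genes 34.1% were higher and 33.4% lower, or 67.5% in all. Astrocyte barcodes also held more ependymal marker UMIs, 0.295, 0.644 and 0.532 per 10000 over the 3 markers, against 0.0385 to 0.122 in the libraries of endothelial cells and microglia. Each of the 3 classes was then limited to barcodes without any ependymal marker UMI (1020, 65 and 543 astrocytes remained). Of the 60 axonemal genes, tested or not, 20 were higher there, all among the 39, and the median fell from 2.36 to 1.14. All 10 transport genes were again called, and their median was 1.27 against 1.25. In that set 33.3% of all genes were higher, so the count of axonemal genes was near the share of all genes.

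The 20 genes included several with a clear level in astrocytes. Rsph9, a spoke head protein (ENSMUSG00000023966.8, chromosome 17, 46122035 to 46144216), stood at 47.3, 58.2 and 60.4 CPM in astrocytes, at 1.67 to 2.65 in endothelial cells and at 1.12 to 3.33 in microglia. Without barcodes holding an ependymal marker the astrocyte values were 46.0, 49.1 and 54.0 CPM, and the log2 change of 4.23 ± 0.19 (edgeR adjusted p = 1.62e-16) became 4.21 ± 0.19. Rsph9 was thus high in every astrocyte library with or without those barcodes, whereas its partner in the spoke head Rsph1 went from 5.77, 18.7 and 11.5 CPM to 1.57, 0 and 3.60 and was no longer called (0.83, adjusted p = 0.0637).

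Dnah7b, an inner arm heavy chain (ENSMUSG00000041144.10, chromosome 1, 46066315 to 46373546), had the largest change, 6.63 ± 0.40 (edgeR adjusted p = 1.61e-13). It stood at 20.9, 20.8 and 18.9 CPM in astrocytes, 40.2% of its ependymal level, and at no more than 0.190 CPM in endothelial cells and 0.159 in microglia. Without ependymal-marker barcodes it stood at 19.7, 16.4 and 19.3 CPM. Dnah7a and Dnah7c are near-identical copies, and reads may be divided among them, so the level of each is uncertain. Cfap100, a cilia protein, had 13.6, 32.7 and 12.5 CPM in the reduced astrocytes, and Dnaic1 changed by 3.51 ± 0.38 in all astrocytes and 3.75 ± 0.38 in the reduced set. Cfap36, the most abundant axonemal gene there, had 85.5, 86.5 and 103 CPM.

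**Figure D4:**
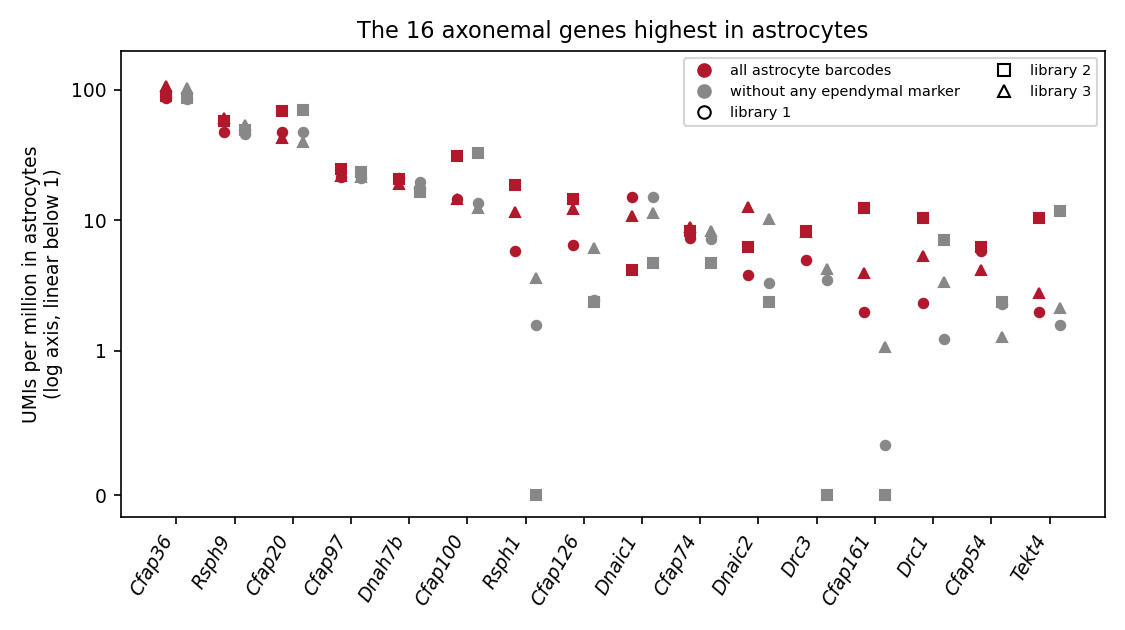
UMIs per 1000000 in astrocytes of the 16 axonemal genes with the highest astrocyte mean, in all astrocyte barcodes (red) and in those without any ependymal marker UMI (grey), 1 point per library, on an axis that is logarithmic above 1. Rsph9, Dnah7b and Cfap100 keep their level, while Rsph1 and Cfap161 reach at most 3.60 and 1.06 in the grey points.

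Transport genes higher in astrocytes were led by Ift81, a complex B protein that binds tubulin, with 40.0, 45.7 and 43.4 CPM against 7.62 to 10.4 in endothelial cells and 1.99 to 6.51 in microglia (2.47 ± 0.20, edgeR adjusted p = 4.47e-11). Ift27, a small GTPase of complex B, followed with 96.6, 81.0 and 90.4 CPM (2.01 ± 0.15, 5.9e-12). Neither overlapped with another class. Ift88, Ift172, Ift20 and Ift52 were not called; Ift88 stood at 6.26, 8.31 and 6.71 CPM in astrocytes and 6.28, 9.52 and 7.86 in endothelial cells. Ift46 lost its call without library 1 (0.41, adjusted p = 0.18) and Ift140 without library 3 (0.77, 0.143). Of 15 primary cilium signalling genes 12 were higher in astrocytes, among them the hedgehog effector Gli3 (6.82 ± 0.34), and the cilium GTPase Arl13b was lower (-0.79 ± 0.20).

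Some genes of the axonemal group were also found in endothelial cells or microglia. Cfap43, Cfap45, Cfap74 and Dnah6, described below, were still far higher in the ependyma. Their means in the second ependymal set of at least 3000 UMIs were 165.5, 192.1, 72.4 and 147.3 CPM. Endothelial cells exceeded microglia in 4 axonemal and 8 transport genes and fell below them in 5 and 2, against 28.3% of all genes higher and 26.6% lower, or 54.9% in all. The axonemal genes were Dnah6, Cfap54, Cfap36 and Cfap43 in the first direction and Cfap74, Cfap77, Cfap45, Cfap126 and Tekt1 in the second. Cfap54 and Cfap77 did not pass without library 1 (edgeR adjusted p = 0.125 and 0.0649), nor Cfap54 with DESeq2 (0.0785) or with several rules kept (0.762). Tekt1 rested on 14 endothelial and 13 microglial UMIs. It did not pass without library 3 (edgeR adjusted p = 0.623) or at no more than 10% mitochondrial UMIs (0.085). Nor did it with several rules kept (0.0728), with 2 of 3 ependymal markers (0.0743) or without ependymal markers (0.0534). Cfap43 (ENSMUSG00000044948.17, chromosome 19, 47736857 to 47919287) stood at 18.3, 19.3 and 9.87 CPM in endothelial cells, 6.58, 5.60 and 5.08 in microglia and 1.81, 8.31 and 1.38 in astrocytes. In barcodes without an ependymal marker the astrocyte values fell to 0.524, 0 and 0.424 CPM while those of endothelial cells were 18.4, 19.9 and 9.57, and Cfap43 was 4.53 ± 0.46 lower on the log2 scale in astrocytes (edgeR adjusted p = 2.35e-09). Where barcodes of several rules were kept, ependymal ones among the astrocytes, Cfap43 and Cfap45 turned higher in astrocytes (1.87 and 2.86). Between endothelial cells and microglia it changed by 0.95 ± 0.28 (adjusted p = 0.0058, and 0.0502 without library 1).

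Cfap74 and Cfap45 were among the Cfap genes higher in microglia than in endothelial cells. They were not the most abundant there: microglia held 146 and 131 UMIs of them, against 419 of Cfap20, 246 of Cfap36 and 169 of Cfap97. Cfap74 (chromosome 4, 155409190 to 155466823) stood at 12.2, 10.1 and 9.05 CPM in microglia, 7.25, 8.31 and 8.95 in astrocytes and 0.190, 0.952 and 0.241 in endothelial cells, so that the classes were separate (-5.35 ± 0.46, endothelial against microglia, edgeR adjusted p = 1.09e-10). Cfap45 (chromosome 1, 172520801 to 172545870) stood at 10.1, 10.1 and 8.89 CPM in microglia and 1.62, 3.09 and 3.05 in endothelial cells (-2.40 ± 0.32, 4.45e-07). Dnah6 went the other way, with 1.85, 5.95 and 4.33 CPM in endothelial cells and 0 UMIs of 13734975 in microglia, at least 14.3-fold lower. Unthinned, a Cfap74 UMI was found in 6.91% to 8.70% of microglia of the 3 libraries and in 0.179% to 1.0% of endothelial cells, at median depths of 7107 to 8526 and 6556 to 8273 UMIs.

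The transport genes also differed between these classes. Ift57 gave 21.0, 19.8 and 19.9 CPM in endothelial cells and 4.28, 2.24 and 6.51 in microglia (1.67 ± 0.24, edgeR adjusted p = 1.74e-06). Ift172, Ift80, Ift43, Ift74, Ift81, Ift122 and Ift27 were also higher in endothelial cells, by 0.70 to 1.38. Ift140, of complex A, was lower, with 2.09, 2.38 and 1.85 CPM against 4.74, 8.95 and 5.71 (-1.81 ± 0.36, adjusted p = 0.000105). Ift52 was the other lower gene (-0.49 ± 0.20, adjusted p = 0.0377) and did not pass when any 1 library was left out. Ift81 and Ift122 did not pass without library 1 (adjusted p = 0.346 and 0.39). Ift122 also did not pass without library 2 (0.0648), with RLE (0.0679), with DESeq2 (0.164), at no more than 10% mitochondrial UMIs (0.0635), without mitochondrially encoded genes (0.0518) or without the library as a block (0.0842).

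Dnah2os was an endothelial transcript. It is annotated within Dnah2, on the opposite strand (ENSMUSG00000086591.1, chromosome 11, 69448548 to 69453676; Dnah2, 69420809 to 69549110). It stood at 16.8, 21.2 and 17.3 CPM in endothelial cells, where Dnah2 itself stood at 0.523, 1.43 and 0.562. Microglia held 1 UMI of it, astrocytes 2, and ependymal cells of at least 3000 UMIs none of 931504, where Dnah2 stood at 44.3 and 37.6 CPM. The 2 genes were thus high in different classes. The endothelial level was 240.1-fold that of microglia (95% counting interval 42.9 to 9497) and at least 5.43-fold that of ependymal cells. No source used here states whether the counting used strand, so reads of the pair cannot be told apart with certainty.

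Dnah8, an outer arm heavy chain, was high in a single library. Endothelial cells of library 2 held 22.1 CPM (93 UMIs), against 0.666 and 0.802 CPM (14 and 10 UMIs) in libraries 1 and 3. These UMIs were spread over 70 of 400 cells, or 17.5% (exact 95% binomial interval 13.9% to 21.6%), with at most 4 in a cell, against 0.626% and 0.622% in the other libraries. Astrocytes and the main ependymal set held no Dnah8, the second ependymal set 1 UMI, in library 3, and microglia 1 UMI, in library 2. Dnah8 did not pass the filter on low counts and was not tested; it was chosen for description after its values were seen.

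**Figure D5:**
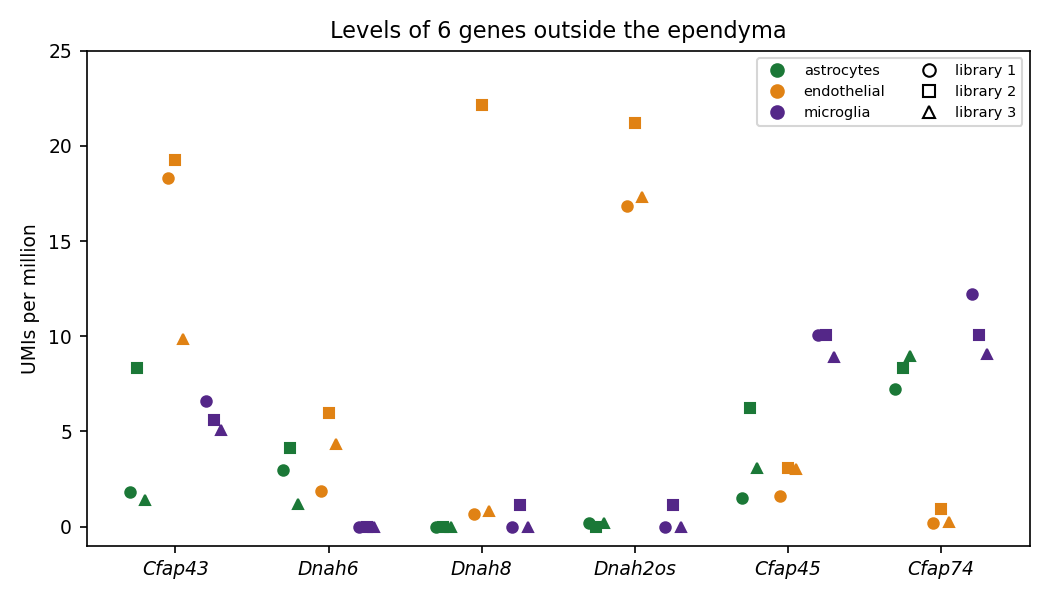
UMIs per 1000000 of 6 genes in astrocytes, endothelial cells and microglia, 1 point per library (circle, square and triangle for libraries 1, 2 and 3). Cfap43 and Dnah2os are highest in endothelial cells, Cfap45 in microglia, Cfap74 in microglia and astrocytes, and Dnah8 at 22.1 in endothelial cells of library 2.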

How the data were processed

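The authors deposited UMI counts per gene and barcode. The submitters' processing notes name Cell Ranger and the mm10 build; version, annotation and use of strand are stated by no source used here. Dots in 2405 gene symbols were restored. Barcodes with at least 500 UMIs, 300 genes and at most 20% mitochondrial UMIs were kept, and Scrublet (scanpy 1.11.5, expected rate 0.06) removed 190, 8 and 133 doublets, leaving 6222, 946 and 4932. Leaving out barcodes of several classes removed most deep ependymal barcodes, a limit of the design noted in the report. Genes and classes were chosen with earlier results of these data known. Counts were summed per library and class (13 sums, 6 residual degrees of freedom) and tested with edgeR 4.0.16 (quasi-likelihood, TMM, filterByExpr, library as a block since classes share a library, Benjamini-Hochberg 0.05). DESeq2 1.42.0 was an alternative. CPM are per 1000000 UMIs of the class. Class sums ran from 30534 to 21035618 UMIs; intervals and floors cover counting error only. Counts were also simulated, with each gene at its share over all classes (14159 genes, 200 changed). In them 4-fold changes were recovered in 64.5% for ependymal against other classes and 5% between the ependymal depths, and 2-fold changes in 6.5% and 0.5%.

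Genes named were every Ift gene, the largest called changes of each comparison (10 for the first and up to 8 each way for the others), the 5 most abundant of each family in the ependyma, and genes with at least 25% of the ependymal level elsewhere; of the other ciliary lists, the 2 highest and lowest changes called. Not every gene so chosen is described. Rsph3a, Tekt5, Dnah2, Dnah8 and any other member outside this rule were named after their values were seen. The second ependymal set and the removal of barcodes with an ependymal marker were also chosen then.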

Additional observations from a re-analysis of the deposited data

How the results depend on the processing

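No alternative run reversed the ratio in ependymal cells or called a member lower there against the other classes, whereas the low-depth comparison moved under most of them. With deep barcodes thinned to 1000 UMIs, 28 axonemal and 3 transport genes were higher in the ependyma, 1185 genes were called in all, and Ift122 (-8.50), Ift172 (-0.70), Ift20 (-0.12), Ift52 (-0.62), Ift74 (-0.0091) and Ift88 (-8.00) reversed without passing the test; 10 and 26 barcodes then remain. All genes called there numbered 9016 with barcodes of several rules kept and 3602 to 5931 with 1 library left out. Between ependymal depths, axonemal genes lower numbered 0 with RLE, DESeq2, mitochondrially encoded genes left out or thinning, 4 with no filter, 5 with 2 of 3 markers or the ependymal rule first, and 0 to 2 with 1 library left out. All genes called there numbered 229 with no filter, 25 with DESeq2, 32 without mitochondrial genes, 122 with several rules kept, 244 with 2 of 3 markers, 80 for under 1000 UMIs, 0 when thinned, 263 with the ependymal rule first and 28 to 87 with 1 library left out. In astrocytes, axonemal genes higher numbered 23 with 2 of 3 markers and 20 without ependymal markers, and those lower 1 at no more than 10% mitochondrial UMIs and 0 with several rules kept. Between endothelial cells and microglia, axonemal genes higher numbered 3 to 7 with 1 library left out, and transport genes lower 1 with no filter, with 2 of 3 markers, without ependymal markers and with any 1 library left out. The log2 ratio became 2.11 in deep ependymal barcodes with several rules kept or the ependymal rule first. In astrocytes it became 0.072 at no more than 10% mitochondrial UMIs, 1.57 with several rules kept, -0.44 with 2 of 3 markers and -0.48 without ependymal markers, and in microglia -0.17 with several rules kept. Without Cfap genes it was 1.01 and 0.61 in ependymal barcodes at high and low depth, -1.52 in astrocytes, -3.27 in endothelial cells and -3.24 in microglia. Unthinned, axonemal shares were 100%, 75.5%, 65.5% and 52.4% in deep ependymal barcodes, astrocytes, endothelial cells and microglia, and transport shares 100%, 80.7%, 77.3% and 61.8%, with 90.4% in ependymal barcodes of low depth. Single genes that reversed in astrocytes were Cfap43 (1.87) and Cfap45 (2.86) with several rules kept, Cfap61 with 2 of 3 markers (-0.69) and without ependymal markers (-0.18), and Dnah12 with 2 of 3 markers (-0.0045). In endothelial cells Cfap54 reversed with several rules kept (-0.24). Over named genes, 1469 alternative values kept direction and call, 77 lost the call and 12 reversed. The cause of these shifts was not tested, and the thinning also changed which barcodes remained.

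Classes of 1 library share its preparation, so the library was a block throughout. With no replicate block, 0 axonemal genes were lower at low depth and 31 genes were called in all; of the other named calls, that fit lost Ift122 between endothelial cells and microglia (adjusted p = 0.0842). With few ependymal UMIs at low depth, 5% of simulated 4-fold changes were recovered there. The simulation drew each gene at its share over all classes, and most members were more abundant in the ependyma than that. The 5% therefore cannot tell which changes of these genes were detectable at this depth.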

Other observations

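The genes 1700097N02Rik and Glo1, which overlap the start of Dnah8, were also higher in library 2; their values were looked up after Dnah8 had been seen, and no cause was tested. The noncoding 1700097N02Rik (chromosome 17, 30622441 to 30626905, minus strand, mm10) stood at 34.8 CPM (146 UMIs) in endothelial cells of library 2 and at 1.19 and 2.65 in libraries 1 and 3, or 18.1 times their mean, and at no more than 0.344 CPM in any library of astrocytes or microglia. Dnah8 lies on chromosome 17 from 30624354 to 30877365 (mm10), and its first 2518 bases overlap Glo1 (30584936 to 30626871, opposite strand), which encodes glyoxalase, an enzyme that clears methylglyoxal. Glo1 stood at 62.3, 126.7 and 73.3 CPM in endothelial cells of libraries 1, 2 and 3, at 28.6, 57.1 and 31.3 in microglia, and at 160.3, 243 and 186 in astrocytes. Library 2 was the highest in all 3 classes, at 1.87, 1.91 and 1.40 times the mean of the other two. Btbd9, the neighbour on the other side of Glo1, gave ratios of 1.35, 1.08 and 1.06 in the same order of classes.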
